A study of Mus musculus with 2 samples.

Results

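The transition between epithelial and mesenchymal cells involves genes that drive it and genes that carry it out. For 9 such genes, binding of the pluripotency factor Nanog was examined in mouse embryonic stem cells (ESCs). The set comprised the transcription factor genes Snai1, Snai2, Twist1, Twist2, Zeb1 and Zeb2 and the effector genes Cdh2, Vim and Fn1. These 9 genes were taken by name, out of 21938 protein-coding genes, and their peaks played no part in the rule. The genes, and the other lists used below, were however chosen with earlier results of these data known. Every Nanog peak within 100 kb of a gene's transcription start site (TSS) was counted, as was every peak for which that gene had the closest TSS among protein-coding genes. The TSS was the 5′ end of the annotated gene (GENCODE vM21 on mm10), and distances were measured to it from the peak's middle base.

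The peaks come from chromatin of Bruce-4 cells, a mouse ESC line, grown in medium with serum and LIF, the cytokine that keeps such cells undifferentiated. Chromatin was fixed with formaldehyde, precipitated with a rabbit monoclonal antibody against Nanog and sequenced (ChIP-seq). The series has 1 immunoprecipitated sample and 1 input sample of the same line, with no treatment or altered genotype given in the labels and no replicate of either. The deposited peak list of the immunoprecipitated sample holds 8737 distinct intervals, 8735 of them on chromosomes 1 to 19, X and Y, and gives positions alone, so that it shows neither how high a peak was nor how many reads it held. No value below has a replicate error, and no p-value was computed. Ranges given in parentheses after a share are its exact 95% Clopper-Pearson interval, computed as if genes or peaks were independent and limited to counting error. For a count of 0, the limit given is the share that 3 counts would make of the total. The labelled cell type could be checked only by where Nanog bound: of 14 ESC marker genes, 13 had a peak within 100 kb and 10 had one within 10 kb, among them Pou5f1 (1.02 kb), Prdm14 (1.09 kb) and Zfp42 (0.172 kb). Over all protein-coding genes the shares were 54.4% and 10.5%. The marker gene without a peak within 100 kb had its closest peak at 110 kb.

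Nanog is a homeodomain factor that binds together with Oct4 and Sox2 at many enhancers of ESCs. Snail, Twist and Zeb proteins are DNA-binding factors that drive the epithelial to mesenchymal transition (EMT), in large part by silencing the E-cadherin gene Cdh1 through E-box sequences. The reverse step, the mesenchymal to epithelial transition, is an early event when fibroblasts are reprogrammed to pluripotency, and during it fibroblasts lose N-cadherin, vimentin and fibronectin.

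Of the 9 genes, 2 had a Nanog peak within 100 kb of the TSS, Snai1 and Zeb2, with 2 peaks each. That was 22.2% (2.81 to 60.0) of the set, against 54.4% of all protein-coding genes. Twist2 and Cdh2 had no peak within 100 kb but were the nearest protein-coding gene of 2 and 6 peaks farther away. Counted by the nearest gene, 4 of 9 (44.4%, 13.7 to 78.8) therefore had a peak, against 24.4% of all protein-coding genes. Snai2, Twist1, Zeb1, Vim and Fn1 had no peak by either count. The interval of the first share reaches above the share of all genes, and the interval of the second reaches below it. In all, 12 distinct peaks were nearest to a gene of the set, and the 4 within 100 kb were among them.

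The sequences of 6 of these peaks are given below, those of Snai1, Zeb2 and Twist2, so that motif copies and their spacing can be seen in place. They were read from GRCm38 (mm10) on the plus strand, whole or, for peaks over 300 bp, as the central 300 bases. Capitals mark the letters searched on both strands, namely the Sox motif (CCATTGT or CCTTTGT), the octamer of Oct factors (ATGCAAAT), the Nanog core (CCATTA) and the Snail/Zeb E-box (CACCTG).
Snai1 peak 1 (chr2:167530075-167530374, plus strand): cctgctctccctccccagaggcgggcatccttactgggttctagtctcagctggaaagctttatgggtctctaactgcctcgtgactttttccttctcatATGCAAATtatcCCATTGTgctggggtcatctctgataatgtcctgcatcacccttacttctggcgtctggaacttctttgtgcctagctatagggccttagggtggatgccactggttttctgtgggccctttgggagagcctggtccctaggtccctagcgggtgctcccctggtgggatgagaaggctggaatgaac
Snai1 peak 2 (chr2:167540152-167540420, plus strand): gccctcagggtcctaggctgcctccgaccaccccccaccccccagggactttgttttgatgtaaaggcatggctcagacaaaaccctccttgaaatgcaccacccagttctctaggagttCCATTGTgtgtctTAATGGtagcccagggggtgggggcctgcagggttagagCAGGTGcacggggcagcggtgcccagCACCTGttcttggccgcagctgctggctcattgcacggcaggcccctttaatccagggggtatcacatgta
Zeb2 peak 1 (chr2:45104631-45104913, plus strand): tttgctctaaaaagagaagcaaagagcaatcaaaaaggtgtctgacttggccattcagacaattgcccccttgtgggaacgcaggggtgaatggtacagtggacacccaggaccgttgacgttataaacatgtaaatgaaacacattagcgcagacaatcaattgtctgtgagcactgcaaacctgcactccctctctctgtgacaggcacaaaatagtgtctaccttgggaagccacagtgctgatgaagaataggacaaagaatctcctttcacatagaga
Zeb2 peak 2 (chr2:45158481-45158780, plus strand): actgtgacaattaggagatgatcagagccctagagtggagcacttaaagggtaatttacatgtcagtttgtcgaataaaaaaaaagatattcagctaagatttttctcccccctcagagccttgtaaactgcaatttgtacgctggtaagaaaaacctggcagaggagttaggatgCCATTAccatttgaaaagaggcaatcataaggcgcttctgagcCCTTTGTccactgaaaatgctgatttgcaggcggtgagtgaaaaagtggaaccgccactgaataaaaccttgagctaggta
Twist2 peak 1 (chr1:91988214-91988513, plus strand): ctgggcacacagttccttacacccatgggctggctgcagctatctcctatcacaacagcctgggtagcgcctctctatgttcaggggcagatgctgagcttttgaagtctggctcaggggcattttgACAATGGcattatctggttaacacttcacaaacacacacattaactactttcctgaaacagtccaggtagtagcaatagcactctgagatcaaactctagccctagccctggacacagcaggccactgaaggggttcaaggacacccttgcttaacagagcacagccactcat
Twist2 peak 2 (chr1:91993830-91994113, plus strand): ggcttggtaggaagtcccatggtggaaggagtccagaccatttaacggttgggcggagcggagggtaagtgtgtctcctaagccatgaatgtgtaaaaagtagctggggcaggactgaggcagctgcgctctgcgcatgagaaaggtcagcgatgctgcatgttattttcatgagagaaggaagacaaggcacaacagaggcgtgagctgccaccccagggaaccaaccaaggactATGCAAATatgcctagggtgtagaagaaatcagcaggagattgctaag
A Sox word stands in 4 of these 6 sequences, and the octamer in 2. Zeb2 peak 1 holds none of the capitalised words.

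Snai1 and Snai2 encode the zinc-finger repressors Snail and Slug. Snai1 (ENSMUSG00000042821.7, chromosome 2, 167538195 to 167542814, plus strand) was the gene of the set with the closest peak. Its second peak, 269 bp wide at 167540152 to 167540420, was centred 2091 bp downstream of the TSS in intron 2, the last intron of its only transcript, which is 2700 bp long. The peak began 953 bp after exon 2 and ended 1478 bp before exon 3. Its first peak, 303 bp wide at 167530074 to 167530376, lay between genes, 7970 bp upstream of the TSS and 10.1 kb from the second. The next protein-coding gene, Spata2, was 37.3 kb from that peak, and a processed pseudogene, Gm11474, was closer, at 5.22 kb. A closest peak as near as that of Snai1 or nearer was found for 3.45% of the protein-coding genes with a peak on their chromosome. Within 10 kb of the TSS, Snai1 was thus the 1 gene of 9 with a peak, against 10.5% of all protein-coding genes.

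Snai2 (ENSMUSG00000022676.7, chromosome 16, 14705852 to 14709385, plus strand) had its closest peak 148 kb upstream of the TSS. That peak, at 14557228 to 14557574, lay between genes and only 4.92 kb from the TSS of A630010A05Rik, its nearest protein-coding gene. It was the only peak within 500 kb of Snai2, whereas Snai1 had 8 within that distance. The stretch of genome to which Snai2 is the nearest protein-coding gene measured 172 kb, longer than the 69.6 kb of Snai1.

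Zeb1 and Zeb2 encode zinc-finger and homeodomain factors that repress epithelial genes. Zeb2 (ENSMUSG00000026872.17, chromosome 2, 44983632 to 45117395, minus strand) had a peak on each side of its TSS. The first, 283 bp wide at 45104631 to 45104913, was centred 12.6 kb inside the gene. It fell in an intron of 86911 bp in each of the 3 principal coding transcripts, 5102 bp from the exon on its 5′ side. The same bases are annotated as exon 3 of 3 noncoding transcripts of the gene. The second, 387 bp wide at 45158438 to 45158824, lay 41.2 kb upstream of the TSS, in the single intron of the lincRNA gene Gm28643 and 1.71 kb from the start of that lincRNA. It was the most distant peak counted within 100 kb of any gene of the set. With a limit of 50 kb, the same 2 of 9 genes had a peak, against 34.9% of all protein-coding genes. Zeb2 has 29 annotated transcript starts, and the closest of them to the first peak, that of the noncoding Zeb2-217, was 5304 bp away.

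Zeb1 (ENSMUSG00000024238.15, chromosome 18, 5591860 to 5775467, plus strand) had its closest peak 428 kb upstream, at 5163290 to 5163616. That peak fell in an exon of the noncoding gene Gm26682, and Zfp438 was its nearest protein-coding gene, at 171 kb. Both Zeb genes are long and stand alone, with stretches of 401 kb for Zeb1 and 1090 kb for Zeb2. The closest peak lay as near as that of Zeb1 or nearer for 89.8% of the protein-coding genes with a peak on their chromosome.

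Twist1 and Twist2 encode basic helix-loop-helix factors of mesoderm. Twist2 (ENSMUSG00000007805.4, chromosome 1, 91801461 to 91848028, plus strand) had 2 peaks 187 and 193 kb downstream of its TSS, at 91988204 to 91988524 and 91993830 to 91994113, with 5607 bp between their middles. Both lay in introns of Hdac4, which encodes a histone deacetylase and is transcribed towards Twist2. They were assigned to Twist2 because the annotated 5′ end of Hdac4 was farther still, at 207 and 202 kb. That assignment changed when the start of every transcript was used, since an internal Hdac4 transcript began 4262 bp from the first peak and 1345 bp from the second. The lincRNA gene Gm26720 started 687 bp from the first of them. Twist1 (ENSMUSG00000035799.6, chromosome 12, 33957671 to 33959829, plus strand) had its closest peak 475 kb upstream, at 33482856 to 33483090, and this was the greatest distance in the set. Twistnb was the nearest protein-coding gene of that peak, at 53.3 kb. In each of the 3 pairs of paralogs, 1 gene was therefore the nearest protein-coding gene of 2 peaks and the other of none.

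Cdh2 encodes N-cadherin, the adhesion molecule that replaces E-cadherin in mesenchymal cells. The gene (ENSMUSG00000024304.14, chromosome 18, 16588877 to 16809246, minus strand) was the nearest protein-coding gene of 6 peaks, the most in the set, of which 3 lay downstream of the TSS and 3 upstream. The closest, 280 bp wide at 16665605 to 16665884, lay 144 kb downstream of the TSS in intron 2 of the main transcript, an intron of 124009 bp. It stood 4325 bp from the start of a shorter coding transcript, Cdh2-202, so that Cdh2 counted among the genes with a peak within 100 kb once every transcript start was used, which made 3 of 9. Beyond the 3′ end of the gene, peaks at 16478078 to 16478622 and 16305623 to 16305857 lay 331 and 504 kb from the TSS. The former, 545 bp wide, was the widest peak of the set and ranked 419 of 8735 by width. Upstream, the peaks at 17418810 to 17419250, 17565429 to 17565695 and 17612460 to 17612709 lay 610, 756 and 803 kb away. Neighbouring Cdh2 peaks were 47.0 to 753 kb apart. The nearest other protein-coding TSS, that of Chst9, is 1050 kb from Cdh2, and the stretch nearest to Cdh2 spanned 1520 kb, with 3.94 peaks per Mb.

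Vim encodes the intermediate filament protein vimentin, and Fn1 the matrix protein fibronectin. Vim (ENSMUSG00000026728.9, chromosome 2, 13573927 to 13582826, plus strand) had its closest peak 124 kb downstream, at 13697550 to 13697846 in an intron of St8sia6, whose own TSS was 96.4 kb from the peak. Among the genes of the set with no peak within 100 kb, Vim came closest to that limit. It had 2 peaks within 200 kb and 7 within 500 kb, each nearer to another gene. Fn1 (ENSMUSG00000026193.15, chromosome 1, 71585520 to 71653200, minus strand) had its closest peak 314 kb upstream, at 71967295 to 71967652. Mreg was the nearest protein-coding gene of that peak, at 245 kb. It was the only peak within 500 kb of Fn1.

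**Figure D1:**
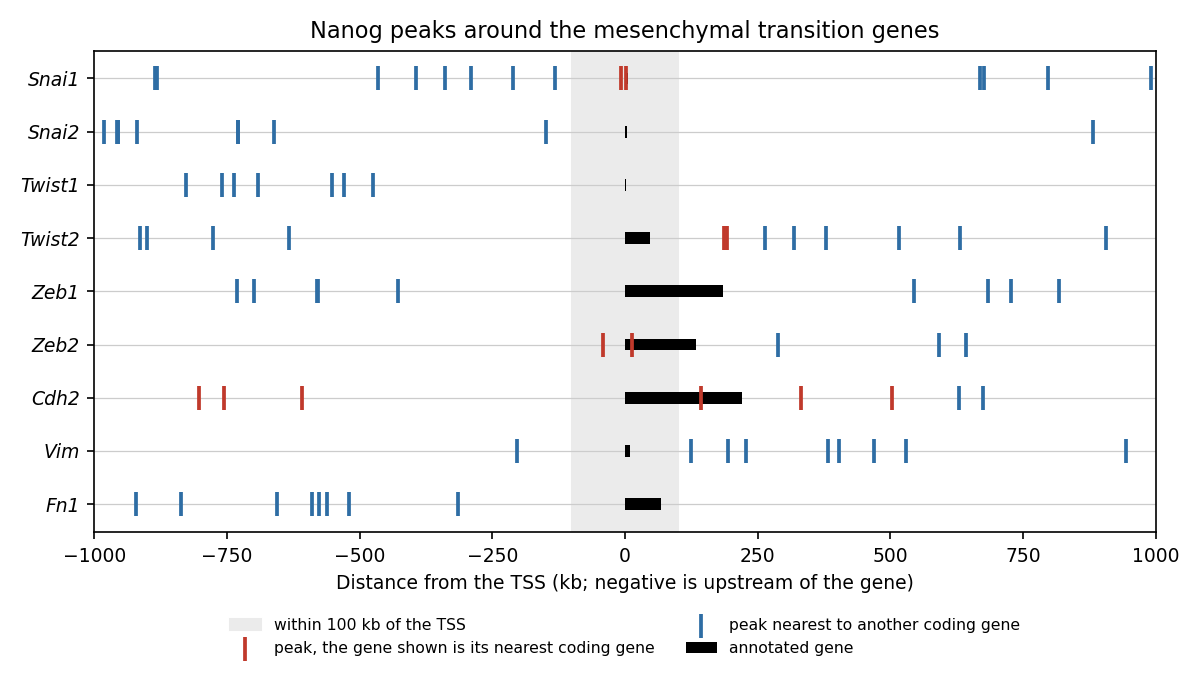
Nanog peaks within 1000 kb on each side of the TSS of the 9 mesenchymal transition genes, 1 row per gene, with distance in kb and negative values upstream of the gene. Red ticks are the 12 peaks for which the gene of that row is the nearest protein-coding gene, blue ticks are peaks nearer to another gene, black bars are the annotated genes and grey shading marks 100 kb on each side; ticks fall in the shading only for Snai1 and Zeb2.

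In order of the closest peak, the distances were 2.09 kb for Snai1, 12.6 kb for Zeb2, 124 kb for Vim, 144 kb for Cdh2, 148 kb for Snai2, 187 kb for Twist2, 314 kb for Fn1, 428 kb for Zeb1 and 475 kb for Twist1. The gap between Zeb2 and Vim was therefore wide, and no gene of the set had a value between them. The median of the set was 148 kb, against 85.3 kb for the 21755 protein-coding genes with a peak on their chromosome. With a limit of 200 kb, 6 of 9 genes had a peak, against 74.1% of all protein-coding genes, and with 500 kb all 9 had one, against 90.6%. With peaks at or above the median width alone, 1 of 9 genes had a peak within 100 kb, Zeb2, since both Snai1 peaks were narrower than the median. The share of all protein-coding genes was then 34.5%.

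**Figure D2:**
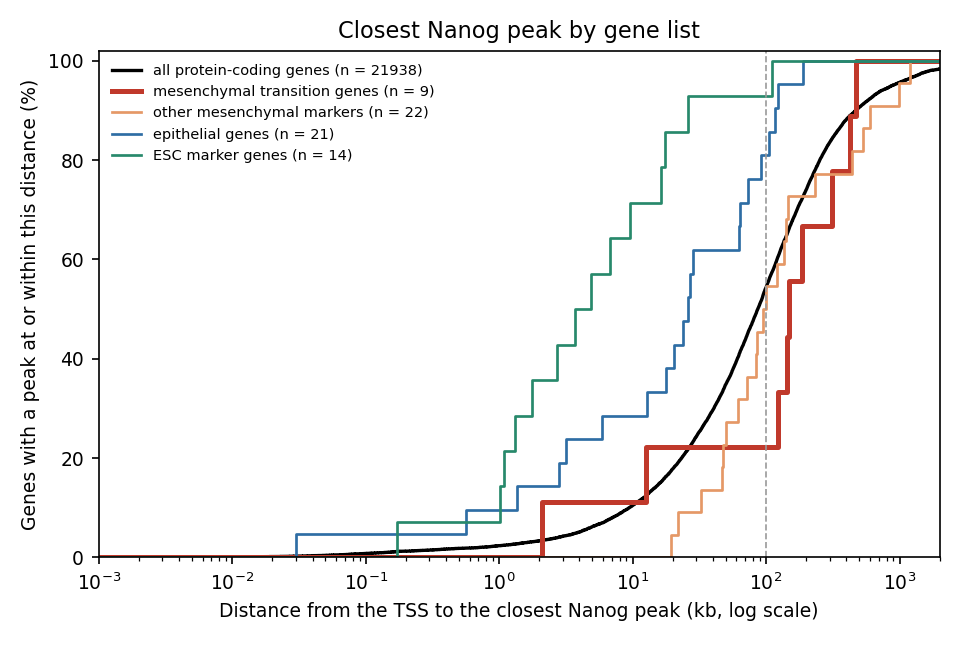
Cumulative share of genes (%) against the distance from the TSS to the closest Nanog peak (kb, log scale), for the 9 mesenchymal transition genes, 3 lists of other genes and all 21938 protein-coding genes, with the dashed line at 100 kb. The curve of the 9 genes stays flat at 22.2% from Zeb2 at 12.6 kb to Vim at 124 kb and there falls below the curve of all genes, which reaches 54.4% at 100 kb.

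Most of these genes have a long stretch of genome to which their TSS is the nearest protein-coding TSS, although the body of another coding gene can extend into it, as Hdac4 does into that of Twist2. When protein-coding genes were ordered by stretch length into 10 classes of equal size, the share nearest to a peak went from 4.1% in class 1, the shortest, to 58.1% in class 10, while the share with a peak within 100 kb went from 61.2% to 38.5%. Twist1, Twist2, Zeb1, Zeb2, Cdh2 and Fn1 belonged to class 10, Snai2 to class 9, Vim to class 8 and Snai1 to class 7. Averaged over the classes in which the 9 genes lie, the background was 43.3% for a peak within 100 kb, against 2 of 9, and 50.9% for the nearest gene of a peak, against 4 of 9. The stretches of the 9 genes summed to 4.54 Mb with 2.65 peaks per Mb, against 3.31 per Mb over the stretches of all protein-coding genes. Snai1 had the highest value, 28.7 peaks per Mb, from 2 peaks in the shortest stretch of the set, 69.6 kb. Twist2 and Zeb2, also with 2 peaks each but in longer stretches, had 6.11 and 1.83.

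**Figure D3:**
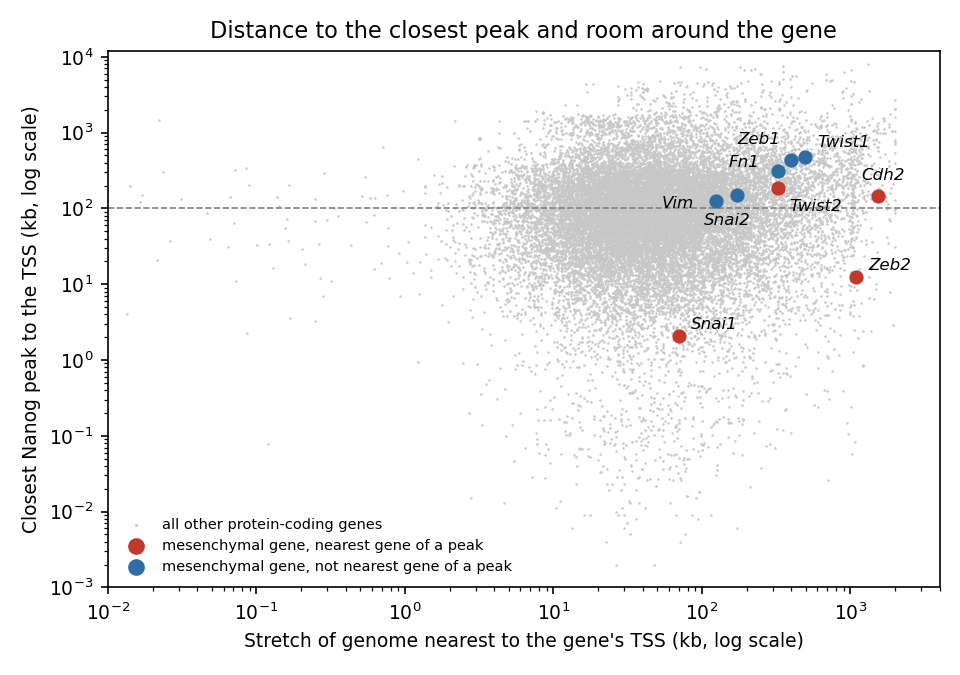
Distance from the TSS to the closest Nanog peak (kb, log scale) against the length of the stretch nearest to that TSS (kb, log scale), with 1 point per protein-coding gene with a peak on its chromosome. Grey points are other genes, red points the 4 mesenchymal transition genes nearest to some peak and blue points the 5 nearest to none, and the dashed line marks 100 kb; Snai1, at 2.09 kb, and Zeb2, at 12.6 kb, lie below that line.

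The 4 genes nearest to at least 1 peak (Snai1, Twist2, Zeb2 and Cdh2) were compared with the 5 that were not. Gene length had a median of 90200 bp in the former and 8900 bp in the latter, against 17400 bp for all protein-coding genes. The ranges overlapped, from 4620 to 220000 bp and from 2160 to 184000 bp. The stretch nearest to the gene had a median of 711 kb (69.6 to 1520) with peaks and 328 kb (125 to 494) without. Over all protein-coding genes its median was 114 kb for those nearest to some peak and 37.1 kb for the others, so genes outside the set differed in the same direction. GC content of the promoter, from 250 bases before to 50 after the TSS, was 67.3% (53.7 to 78.7) with peaks and 61.7% (50.7 to 66.0) without. The ratio of observed to expected CpG in the promoter was 0.864 (0.509 to 0.993) and 0.652 (0.521 to 0.897). Split in the same way, all protein-coding genes had median lengths of 35400 and 14300 bp. Their median promoter GC was 58.0% and 54.0%, and their CpG ratio 0.652 and 0.469. For these properties too, genes outside the set differed in the same direction. With 4 genes against 5, and with ranges that overlapped for each property, none of them separated the groups.

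The 12 peaks were ordinary in size, with a median width of 284 bp (235 to 545) against 319 bp for all 8735. By their middle base, 6 lay between genes, 5 in introns and 1 in an exon of noncoding transcripts, and none lay in a promoter or coding exon of the set. The middle of 3 of the 12 fell in a repeat, against 1779 of 8735. Median GC content was 46.0% (38.4 to 59.5), against 47.7% for all peaks. Among all annotated genes rather than protein-coding ones, the intronic Snai1 peak was the only 1 of the 12 for which a gene of the set stayed the nearest, because genes that do not encode proteins started closer to the other 11.

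Motifs of the factors that share enhancers with Nanog were then counted in the 12 peaks. The Sox motif occurred in 6 of them (50.0%, 21.1 to 78.9), against 28.2% of all peaks. It was found in both Snai1 peaks, Zeb2 peak 2, Twist2 peak 1 and 2 of the Cdh2 peaks. None of the 24 windows of the same width placed 1 kb beyond the peaks held it, which allows a share of up to 12.5%, against 11.6% of such windows beside all peaks. The octamer occurred in 4 of 12 (33.3%, 9.92 to 65.1), namely Snai1 peak 1, Twist2 peak 2 and 2 Cdh2 peaks, against 5.72% of all peaks, 0 of the 24 windows and 2.19% of windows beside all peaks. The Nanog core also occurred in 4 (33.3%, 9.92 to 65.1), namely Snai1 peak 2, Zeb2 peak 2 and 2 Cdh2 peaks, against 18.1% of all peaks, 2 of the 24 windows and 13.0% of windows beside all peaks. At least 1 of these 3 words stood in 11 of the 12 peaks (91.7%, 61.5 to 99.8), the exception being Zeb2 peak 1, against 44.1% of all peaks. It stood in 2 of the 24 windows (8.33%, 1.03 to 27.0) and in 24.7% of windows beside all peaks. This combination of words was chosen after the counts were seen. Within 200 bp around the middle, 8 of 12 peaks held 1 of them (66.7%), against 33.6% of all peaks. The 12 peaks are not 12 separate loci, since Snai1, Zeb2 and Twist2 have 2 each and Cdh2 has 6.

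The motif copies of the Snai1 peaks stood close together. In the intronic peak a Sox word and a Nanog core were 6 bases apart, centred 11 and 2 bp from the middle of the peak. In the upstream peak the octamer and a Sox word were 4 bases apart on the same strand, 46 and 35 bp from the middle. Of all 8735 peaks, 158 held both a Sox word and an octamer, and in 20 of these (0.229% of all peaks) the words lay within 20 bp. A Sox word and a Nanog core were both in 462 peaks, and in 91 of these (1.04% of all peaks) they lay within 20 bp. In Zeb2 peak 2 the Nanog core and the Sox word were 37 bases apart, with the former 29 bp from the middle. The Oct4-Sox2 composite motif, allowed 2 mismatches, was in none of the 12, which allows a share of up to 25.0%, against 1.4% of all peaks.

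The other words searched occurred in 0 to 4 of the 12 peaks. The E-box bound by Snail and Zeb proteins occurred in 3 of 12 peaks (25.0%), against 32.5% of all peaks. The intronic Snai1 peak held 2 copies of it, in the gene that encodes a factor binding this word, and Cdh2 peaks held the others. The Tead motif (GGAATG) occurred in 4 of 12 (33.3%), against 25.4%, and in 3 of the 24 windows (12.5%). The Tcf/Lef motif (CTTTGAA or CTTTGAT) occurred in 2 of 12 (16.7%), against 17.4% of all peaks, and in 6 of the 24 windows (25.0%). The AP-1 motif (TGACTCA or TGAGTCA) was in 1 peak, the intronic Cdh2 peak, with 2 copies, against 8.04% of all peaks. Klf (GCCACACCC, GCCACGCCC, GCCCCACCC or GCCCCGCCC), Esrrb (TCAAGGTCA), extended Nanog (GCCATTAA) and Myc E-box (CACGTG) words were in none of the 12, against 9.0%, 3.53%, 2.14% and 4.24% of all peaks.

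**Figure D4:**
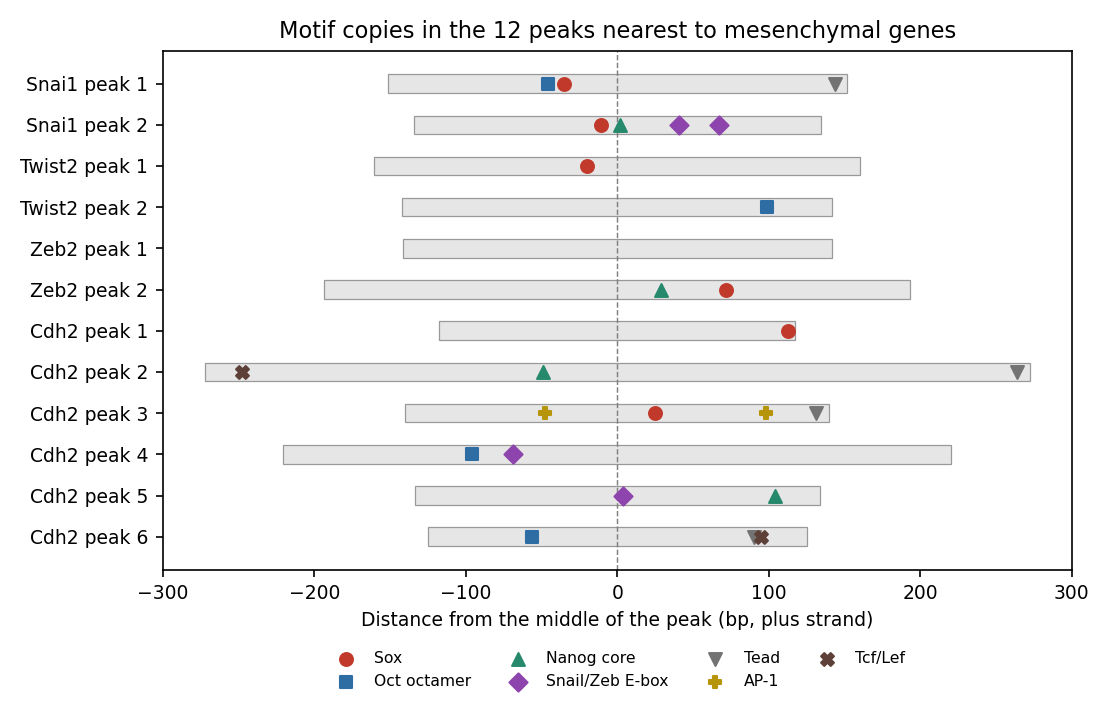
Motif copies in the 12 Nanog peaks nearest to Snai1, Twist2, Zeb2 and Cdh2, with 1 row per peak, grey bars for the extent of the peak and symbols at the centre of each copy (distance from the middle of the peak in bp, plus strand). Sox (red circle) copies appear in 6 rows, octamers (blue square) in 4, Nanog cores (green triangle) in 4 and no symbol in the row of Zeb2 peak 1.

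Other genes of the same process were counted in the same way, against the shares of all protein-coding genes given above, 54.4% within 100 kb, 10.5% within 10 kb and 24.4% by nearest gene. Of 15 other EMT transcription factors, 7 (46.7%, 21.3 to 73.4) had a peak within 100 kb, none had one within 10 kb, and 8 (53.3%) were nearest to some peak. Of 18 genes of EMT signalling, 9 (50.0%, 26.0 to 74.0) had one, and Smad7, an inhibitor of TGF-beta signalling, was the only 1 within 10 kb, with its closest peak 6.5 kb upstream and 10 peaks within 100 kb. Of the 18, 9 (50.0%) were nearest to some peak. Of 22 other mesenchymal markers, 12 (54.5%, 32.2 to 75.6) had a peak within 100 kb and none within 10 kb, and 6 (27.3%) were nearest to some peak. The shares within 100 kb of these 3 lists thus lay near that of all protein-coding genes. Of 21 epithelial genes, 17 (81.0%, 58.1 to 94.6) had a peak within 100 kb and 11 (52.4%, 29.8 to 74.3) were nearest to some peak, a share like those of the EMT transcription factors and of EMT signalling. The epithelial genes had a median stretch of 36.9 kb, against 328 kb for the 9 mesenchymal transition genes. It was 179 kb for the other EMT transcription factors and 149 kb for EMT signalling. No comparison between lists was matched on stretch. Per Mb of stretch, the epithelial genes had 18.1 peaks, the other EMT transcription factors 2.6 and EMT signalling 5.19. The median closest peak of the epithelial genes was at 25.8 kb, against 148 kb for the 9 mesenchymal transition genes. Most epithelial genes thus had no peak within 10 kb, and the farthest closest peak of that list was at 190 kb. Neighbouring genes of that list can share a closest peak, so the 21 are not separate loci. Epithelial genes with a peak within 10 kb included Cdh1 (E-cadherin, 5.93 kb downstream), Krt8 (a keratin, 3.17 kb upstream), Cldn4 (a tight junction protein, 0.562 kb upstream), Esrp1 (an epithelial splicing factor, 2.81 kb upstream) and Grhl2 (a factor of epithelial identity, 1.36 kb upstream). The interval of the epithelial share and that of the 9 genes (2.81 to 60.0) overlapped between 58.1% and 60.0%.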

How the data were processed

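Nanog ChIP-seq of 1 immunoprecipitated Bruce-4 ESC sample was analysed; the input sample, which has no peak list, was not used. As the study's methods describe, reads were inspected with FastQC, aligned to mm10 with Bowtie2, filtered (low quality, duplicates, mitochondrial and blacklisted regions) with SAMtools and BEDtools, and MACS2 then called the peaks. Its threshold and its use of the input are not given in the sources used here. The authors deposited chromosome, start and end in base pairs, with no signal, score or p-value, so sites below the threshold cannot be told from unbound ones and the reads behind a peak cannot be counted. Of 8860 lines, 123 repeated an interval and were dropped, and 2 peaks on scaffolds entered no distance.

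Distances, annotation (GENCODE vM21, 55413 genes) and motifs (GRCm38 sequence, both strands, no mismatch but for the composite) were computed with Python 3.11.15, pandas 2.3.3, pysam 0.24.0 and scipy 1.17.1, and the code was tested on simulated data. The nearest gene lay at most 1000 kb away. The stretch of a gene is the part of the genome whose nearest protein-coding TSS, within that limit, is the gene's own. Windows beside peaks were left out where they held unknown bases or overlapped a peak. All 9 genes and all their peaks are named; of the other 5 lists, genes with a peak within 10 kb are named (of the ESC markers, examples), except for an item that is not reported here. The genes and lists were chosen with earlier results of these data known. No test was run, because 1 library has no replicate.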

Additional observations from a re-analysis of the deposited data

How the results depend on the processing

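No paired analysis was possible because just 1 of the 2 samples carries values. Among 83 recomputed values, 56 stayed within 1.5 times a count or within the interval of a share, and 27 moved. These values are counts, shares and distances, which have no sign, so a change of direction could not be scored. 18 of the alternatives, those for the other lists and for the combination of 3 words, were chosen after seeing the data. With peaks at or above the median width, which keeps fewer peaks, 1 gene of the set had a peak within 100 kb, with 1 peak, 4 peaks were nearest to the set, and the shares of all protein-coding genes were 34.5% within 100 kb and 14.9% by nearest gene. With the start of every transcript, 57.1% of protein-coding genes had a peak within 100 kb; in the set the closest peaks of Zeb2 and Cdh2 moved to 5304 and 4325 bp, and Twist2 lost its 2 peaks to Hdac4. A window of 50 kb gave 34.9% of protein-coding genes. A window of 200 kb gave 74.1%, 6 genes of the set and 11 peaks. With all annotated genes competing, 1 gene of the set was the nearest gene of 1 peak, and 13.5% of protein-coding genes were nearest to some peak. With the nearest gene at most 100 kb away, these values were 2 genes, 4 peaks and 21.2%. Genes of the same classes by stretch length gave 43.3% within 100 kb and 50.9% by nearest gene. By nearest gene the set (44.4%, 13.7 to 78.8) had an interval that holds both the 24.4% of all protein-coding genes and this 50.9%. With all annotated genes competing, 1 of 9 genes is likewise too small a count to tell from the 13.5%. Using every line of the list, merging peaks within 300 bp or measuring from the edge of the peak moved none of the counts of the set beyond 1.5 times. Sites below the threshold of the peak call are not in the list, so a gene without a peak is a gene without a called peak.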

Other observations

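In Zeb2 and Cdh2 the closest peak lay inside the gene but more than 10 kb from the annotated 5′ end. In both it fell in a long intron of the principal transcripts, although for Zeb2 also in an exon of noncoding transcripts. It stood within 6 kb of an internal transcript start. For Zeb2 the start was that of the noncoding transcript Zeb2-217, at 5304 bp, and for Cdh2 that of the coding transcript Cdh2-202, at 4325 bp. Zeb2 has 29 annotated transcript starts and Cdh2 has 3, and how often other sites in these genes lie as near to a start was not counted. The Twist2 peaks lay outside Twist2, in Hdac4 introns of 3825 and 4442 bp, and 4262 and 1345 bp from an internal start of Hdac4. Whether these transcripts are made in ESCs cannot be read from a peak list.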
